A study of Mus musculus with 19 samples.

Results

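The genes described here encode the extracellular matrix of mouse pluripotent cells, the integrin receptors that bind it, and the enzymes that cut or cross-link it. They were chosen by symbol, with earlier results of these data known. The symbols cover collagens, laminin chains, integrin alpha and beta chains, matrix metalloproteinases (Mmp), their inhibitors (Timp) and Adamts proteases. The lysyl oxidase family, fibronectin, Sparc, nidogens, fibrillins and thrombospondins are included too. The choice gave 72 genes of the 12778 in the authors' deposited expression matrix. GENCODE M21 lists 140 protein-coding mouse genes with such symbols. The other 68, among them Col1a2, Col3a1 and Lox, had no row in the matrix and were not analysed here, so counts below refer to the 72 only.

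Expression was measured with QuantSeq, which sequences the 3′ end of each polyadenylated transcript, in 19 libraries. Induced pluripotent stem cells (iPSC) had been made from mouse embryonic fibroblasts with Oct4, Sox2 and Klf4 and were collected more than 18 passages later; embryonic stem cells (ESC) were derived directly. All cells grew in medium with LIF and fetal bovine serum, and the groups differed in genotype. Wild type (WT) iPSC had 3 libraries, which the design does not call independent derivations. Knockout (KO) iPSC lacking the miR-290 cluster, the miR-302 cluster or both (double KO) each had 2 colonies derived independently, with 2 libraries per colony. ESC lines were analysed for each single KO, with 2 libraries per genotype and no WT ESC. If the WT libraries come from 1 derivation, p-values against WT understate the spread between derivations. All 6 groups share 1 estimate of spread in the test, so p-values of the other comparisons are affected as well. The ESC libraries, which carry no colony label, enter that estimate too.

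A basement membrane is a thin sheet in which laminin trimers, each with an alpha, a beta and a gamma chain, are joined to a collagen IV network by nidogens and the proteoglycan perlecan. Cells hold on to it through integrins, pairs of an alpha and a beta chain that bind laminin, collagen or fibronectin outside the cell and the actin skeleton inside. Mouse pluripotent cells make laminin and fibronectin themselves, and matrix is remodelled by metalloproteinases, which Timp proteins inhibit, and stiffened by lysyl oxidases, which cross-link collagen.

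The miR-290 cluster on mouse chromosome 7 and the miR-302 cluster on chromosome 3 are both active in pluripotent cells, and several of their mature microRNAs share a seed, the bases that pair with target transcripts. In the RefSeq table (GRCm38.p6), 26 mature microRNAs of these loci were found, and 5 of them carry the seed AAGUGCU. Some mature microRNAs of these loci have no entry there: for Mir302a and Mir292 only the 5p product was found. The list of 5 may therefore be incomplete. The 5 are shown because this shared seed is what only the double KO removes from both loci. Capitals mark the seed, bases 2 to 8. The 3 from chromosome 7 come before the 2 from chromosome 3.

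miR-291a-3p: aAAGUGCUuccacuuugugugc
miR-294-3p: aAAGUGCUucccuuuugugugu
miR-295-3p: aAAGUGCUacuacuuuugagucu
miR-302b-3p: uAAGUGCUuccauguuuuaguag
miR-302d-3p: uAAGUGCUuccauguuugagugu

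The letters that pair with this seed, AGCACTT on the transcript strand, were searched for in the longest annotated 3′ untranslated region of each gene. They occurred in 11 of the 72 genes (15.3%) and in 2073 of 11844 genes of the matrix with such a region (17.5%). Among the 28 matrix and integrin genes called higher in double KO than in WT iPSC, 3 held a match (10.7%), against 21.3% of all genes called higher. Of the 23 called lower, 6 held a match (26.1%), against 13.7% of all genes called lower, and of the 21 not called, 2 did (9.52%, against 17.0%). The 3 higher genes with a match were Col4a2, Loxl2 and Adamts10; in Loxl2 the match is followed by an A and is an 8mer. These 30-base stretches are printed with the match in capitals.

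Col4a2 site: gaggaggagatgatAGCACTTttttctatc
Loxl2 site: gtagctgctttctgAGCACTTacccttctc
Adamts10 site: gctcaatggataaaAGCACTTgctatcaag

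The other 8 genes with a match were Col18a1, Lama3, Mmp17, Mmp23, Mmp24 and Nid1, which were lower in double KO than in WT iPSC, and Adamts9 and Itgb3, which were not called. A match is a run of letters and not a measured site.

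Recovered reads per library ran from 6435997 to 24974510 (median 17459410). Levels are given as CPM, recovered reads per 1000000 of the library; a transcript yields 1 position to count in this assay whatever its length, so levels of different genes can be set side by side. Differences are log2 fold changes with their standard error (SE) from limma, and a gene was called where the Benjamini-Hochberg adjusted p over all 12778 genes was under 0.05. In 1 library, library 2 of miR-302 KO iPSC colony 1, values correlated with its group at 0.852 on average; in the other 18 libraries this value was 0.904 or more. With that library left out, the counts of called genes given below became 46 for double KO against miR-302 KO (48 with it), 5 between the single KO groups (4), 30 for the departure from the sum (34), 49 for double KO against WT (51, the Adamts8 and Col9a3 calls lost) and 0 for miR-302 KO against WT (0). All 8 listed markers of pluripotent cells were lower in double KO than in WT iPSC; the 7 with recovered reads summed to 52.8 to 90.3 CPM per double KO library, against 2336 to 2847 in WT. The double KO colonies thus carry the iPSC label with the defining markers of that cell type largely absent, and the label is kept here only as a name. Of the endoderm markers 4 of 15 had a row. Their sums were 55.2 to 313 CPM per double KO library and 30.7 to 50.8 in WT. Lrp2 was called higher, at 166 CPM on average in double KO and 33.1 in WT. The other 3 were called lower: Gata4 (0 reads in double KO), Dab2 (0.918 CPM against 3.73 in WT) and Amn (0.164 against 1.82). Of 11 fibroblast markers 3 had a row, with sums of 2.52 to 8.84 CPM per double KO library and 4.53 to 6.57 in WT; in double KO and WT, Thy1 averaged 0.15 and 3.21 CPM, Pdgfrb 0.103 and 1.42, and Twist1, which was not called (adjusted p = 0.0508, limma), 5.24 and 0.716. Of 5 endothelial markers 4 had a row, with sums of 23.1 to 42.3 CPM per double KO library and 87.3 to 118 in WT. Kdr and Tek were called higher, at 12.9 and 16.4 CPM on average in double KO against 0.0527 and 4.28 in WT. Pecam1 and Tie1 were called lower, at 0.371 CPM and 0 reads in double KO against 93.4 and 0.976 CPM in WT. The part of such cells in the results below was not tested, and in bulk RNA fewer cells that express a gene and less RNA per cell cannot be told apart.

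Matrix and integrin transcripts made up more of the RNA in double KO iPSC than in any other group. The 72 genes summed to 8568 and 10620.0 CPM in the 2 double KO colonies, to 2195 to 2734 in the 3 WT libraries, to 3546 and 3739.5 in the miR-290 KO colonies and to 2505 and 2536 in the miR-302 KO colonies. Sparc alone supplied 4257 and 2472 CPM of the double KO sums. The rise in the sum came with losses among other genes of the same families: in double KO against WT iPSC, 28 of the 72 genes were called higher (38.9%) and 23 lower (31.9%), and 21 were not called. Over all 12778 genes, 27.4% were called higher and 21.5% lower. The counts by role below cover few genes each and are to be read against these shares. The median log2 fold change of the 72 was 0.06, against 0.16 over all genes. Median-of-ratios scaling moved the median of all genes to 0.01 and gave 27 higher and 24 lower. Of the 51 calls, 40 held in each of the 21 alternatives of processing and left-out samples; the other 11 are named where they are described.

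**Figure D1:**
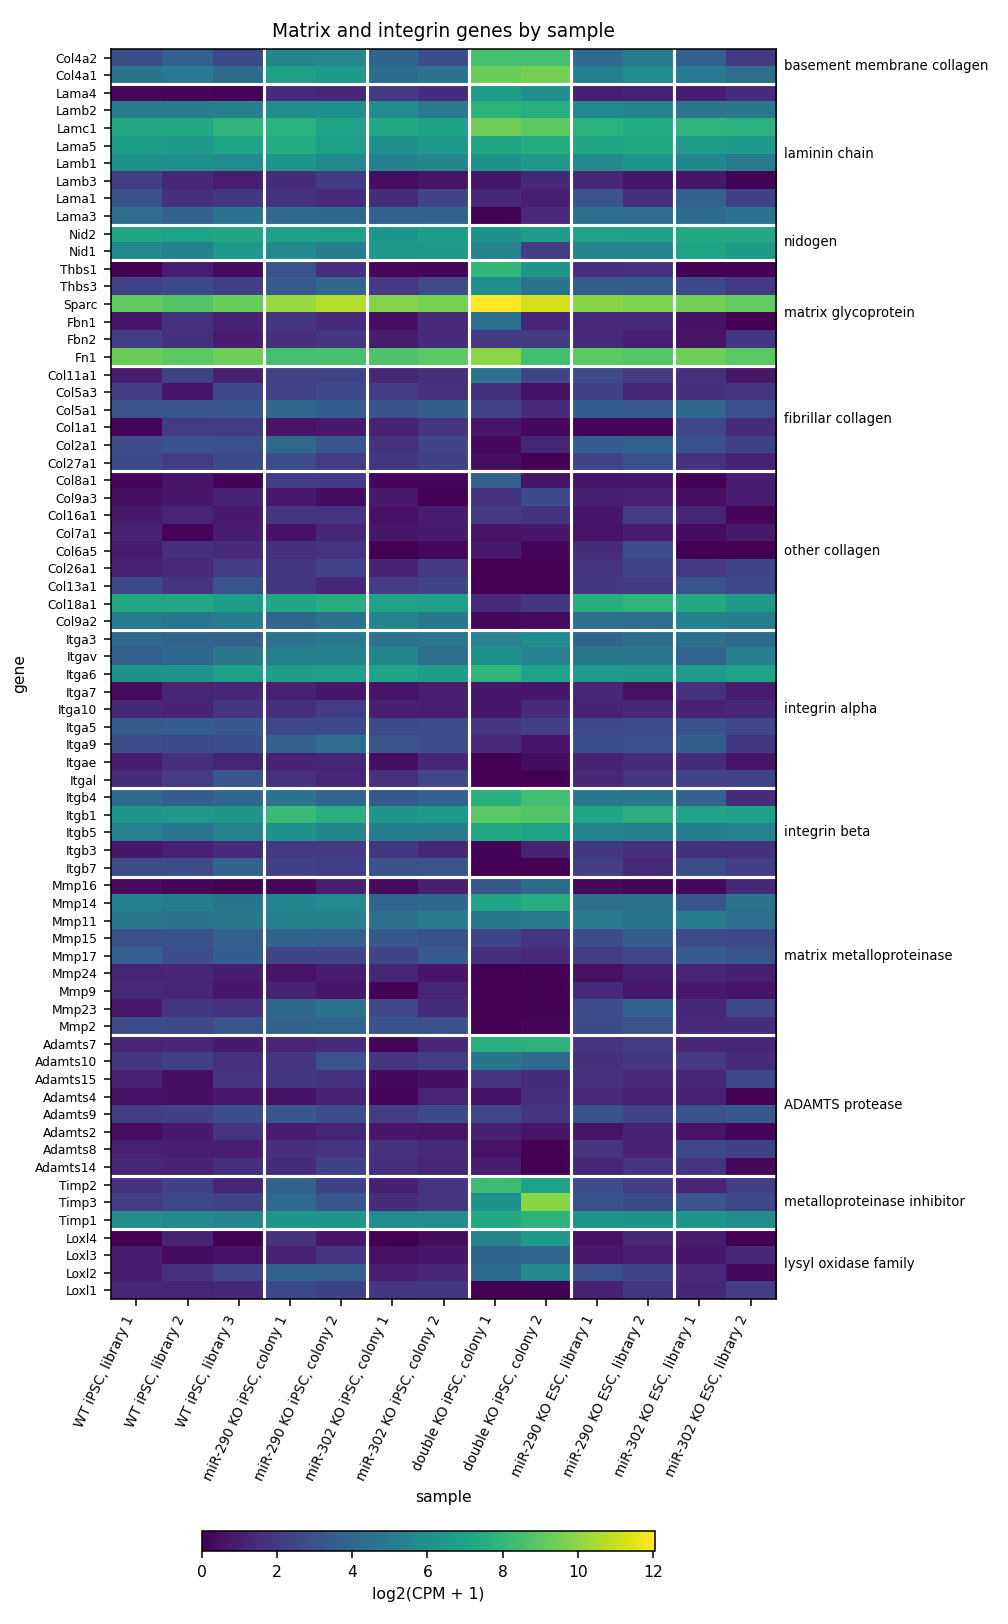
Level of 71 of the 72 genes (rows, grouped by role) in each of the 13 samples (columns; a colony is the mean of its 2 libraries), as log2(CPM + 1), with brighter colours for higher levels. The double KO columns are brighter than all others for Sparc, Col4a1 and Lamc1 and near 0 for Col13a1, Itgb7 and Mmp2.

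Collagen IV rose by similar amounts in both double KO colonies. Col4a1 and Col4a2 encode the chains that twist together into the collagen IV of most basement membranes. Col4a1 measured 24.2, 30.2 and 18.5 CPM in WT, 17.9 and 23.2 in miR-302 KO, 109.5 and 90.1 in miR-290 KO, and 658 and 739.9 in double KO iPSC. For Col4a2 the values were 6.41, 12.6 and 5.64 CPM in WT, 13.7 and 6.46 in miR-302 KO, 45.1 and 47.4 in miR-290 KO, and 378 and 354 in double KO iPSC. Both genes thus had 3 levels: low in WT and miR-302 KO, which overlapped, higher in miR-290 KO and highest in double KO, with no overlap between these. In double KO against WT, the log2 fold change was 4.86 ± 0.31 (SE) for Col4a1 (adjusted p = 1.06e-07, limma) and 5.54 ± 0.54 for Col4a2 (adjusted p = 4.65e-06, limma).

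Col4a1 (ENSMUSG00000031502.11, chromosome 8, 11198423 to 11312826, minus strand) and Col4a2 (ENSMUSG00000031503.13, chromosome 8, 11312805 to 11449287, plus strand) lie head to head in GRCm38, so that 1 stretch of DNA holds the start of both. The RefSeq promoter windows, 300 bases around each start, overlap; they are printed because the pair moved together, with capitals on each match to the GC box GGGCGG or the CCAAT box, either strand.

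Col4a2 promoter, chr8:11312555-11312854, plus strand: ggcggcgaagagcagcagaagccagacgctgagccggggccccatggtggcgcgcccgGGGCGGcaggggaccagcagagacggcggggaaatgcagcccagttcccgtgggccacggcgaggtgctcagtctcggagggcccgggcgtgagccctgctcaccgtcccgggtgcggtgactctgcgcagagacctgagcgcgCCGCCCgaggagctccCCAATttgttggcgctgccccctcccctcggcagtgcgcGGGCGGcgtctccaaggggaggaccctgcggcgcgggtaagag
Col4a1 promoter, chr8:11312777-11313076, minus strand: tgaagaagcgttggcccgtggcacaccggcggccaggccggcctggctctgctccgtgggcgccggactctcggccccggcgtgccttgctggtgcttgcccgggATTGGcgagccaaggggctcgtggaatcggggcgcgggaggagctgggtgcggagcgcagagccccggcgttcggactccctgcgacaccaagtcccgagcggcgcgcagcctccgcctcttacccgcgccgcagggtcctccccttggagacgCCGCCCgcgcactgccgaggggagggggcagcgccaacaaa

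The Col4a2 window holds 3 GC boxes and 1 CCAAT box, and the Col4a1 window holds 1 of each. The GC box of the Col4a1 window lies in the overlap and is the last GC box of the Col4a2 window, read on the other strand. A GC box occurs in 35.7% and a CCAAT box in 37.4% of the 32851 promoter windows in the table. G and C make up 73.7% of the Col4a2 window and 74.0% of the Col4a1 window, against a median of 52.7% over all windows.

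Laminin transcripts rose in sum and changed in makeup. Of 9 chains, 4 were called higher in double KO than in WT iPSC (44.4%, against 27.4% of all genes), Lama4, Lamb2 and Lamc1 among them. Only 1 was called lower (Lama3, 11.1%, against 21.5%), and Lama1, Lama5, Lamb1 and Lamb3 were not called. Lama4, the alpha chain of vessel and muscle basement membranes, had 0.215, 0.158 and 0.0687 CPM in WT and 107 and 60.04 in double KO (log2 fold change 8.14 ± 0.54, adjusted p = 1.54e-07, limma). Its single KO values, 1.79 and 1.65 CPM in miR-290 KO and 3.04 and 2.02 in miR-302 KO, lay between the 2 without overlap. Lama3, the alpha chain of epithelial anchoring laminin, went the other way, from 18.8, 12.8 and 24 CPM in WT to 0.0631 and 1.82 in double KO (−4.87 ± 0.70, adjusted p = 0.00011, limma).

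Lama5, the main alpha chain of these cells, had 107, 92.4 and 126 CPM in WT and 133 and 175 in double KO, a difference of 0.50 ± 0.28 that did not pass the test (adjusted p = 0.159, limma). Lama1 was at 6.57, 2.21 and 2.82 CPM in WT and 1.53 and 1.01 in double KO (−1.49 ± 0.73, adjusted p = 0.11, limma). Of the alpha chain reads, Lama5 held 83.0% ± 2.66 (SD, n = 3) in WT and 64.3% ± 13.1 (n = 2) in double KO. Lama4 held 0.118% ± 0.0640 and 34.8% ± 13.5 of them, and Lama3 13.9% ± 1.90 and 0.396% ± 0.524.

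The beta chain shares did not overlap between the 2 genotypes. Lamb1 was not called, with 70.7, 64.7 and 55.9 CPM in WT and 69.4 and 89.7 in double KO (0.31 ± 0.29, adjusted p = 0.393, limma), while Lamb2, which replaces it in many adult basement membranes, had 33.9, 32.2 and 39.0 against 223 and 189.6 (2.54 ± 0.25, adjusted p = 5.29e-06, limma). Lamb2 therefore held 34.9% ± 5.03 (SD, n = 3) of beta chain reads in WT and 71.8% ± 6.09 (n = 2) in double KO. Lamc1, the gamma chain of most laminins, measured 156, 154 and 233 CPM in WT and 692 and 520.5 in double KO (1.76 ± 0.26, adjusted p = 0.000151, limma). Lamb3, the beta chain of epithelial anchoring laminin, was at 1.03 to 3.5 CPM in WT and at 0.712 and 1.65 in double KO and was not called.

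**Figure D2:**
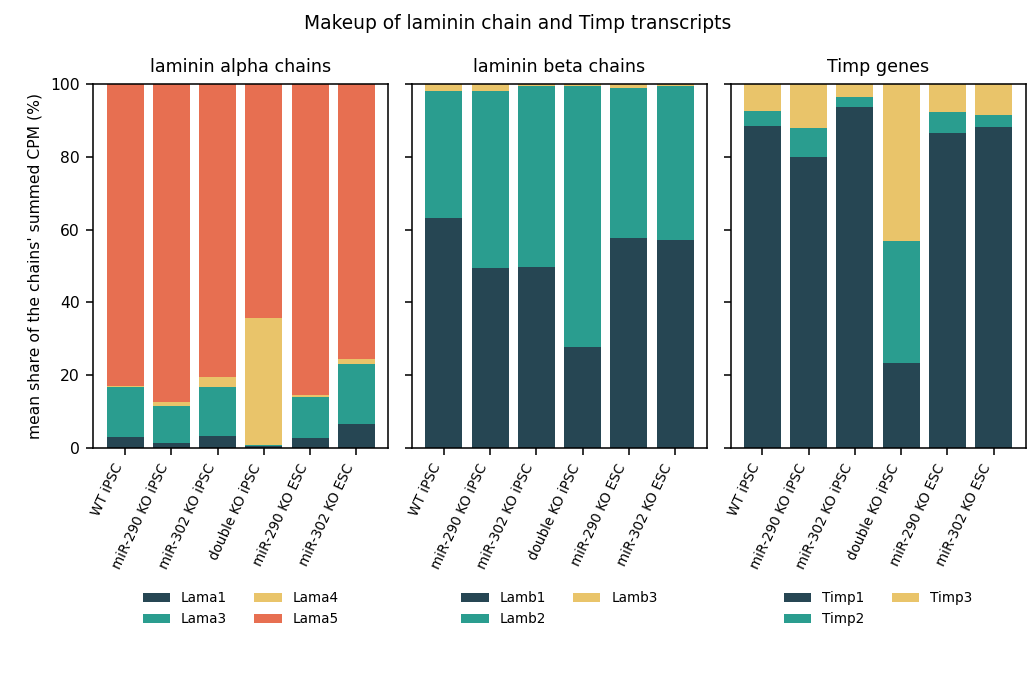
Mean share (%, vertical axis) of each chain in the summed CPM of laminin alpha and beta chains and of Timp genes, in the 6 groups (horizontal axis; n = 3 samples in WT iPSC and 2 in each other group). In double KO iPSC the share of Lama3 is near 0 and Lama4, Lamb2, Timp2 and Timp3 hold larger shares than in WT.

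Both nidogens, the linkers of laminin and collagen IV, were called lower in double KO iPSC, and neither call was stable. Nid1 measured 52.3, 39.0 and 87.9 CPM in WT but 40.6 and 3.63 in the 2 double KO colonies, so that colony 1 lay within the WT range (−2.19 ± 0.70, adjusted p = 0.0199, limma). Without colony 2 the difference was −0.48 (adjusted p = 0.365), and without WT library 3 it was −1.87 (adjusted p = 0.0685); with only the groups compared the adjusted p was 0.0867. Nid2 had 134, 125 and 151 CPM in WT against 69.7 and 101 (−0.70 ± 0.25, adjusted p = 0.0336, limma). The difference was −0.43 without double KO colony 1 (adjusted p = 0.286), −0.71 without WT library 1 (0.0658), −0.62 without WT library 3 (0.0907) and −0.62 with a replicate block (0.0969), and with each library as a sample the adjusted p was 0.197.

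Sparc and fibronectin were the most abundant members in WT, and only Sparc rose. Sparc, a collagen-binding protein of basement membranes, measured 552, 451 and 616 CPM in WT, 1173 and 1653 in miR-290 KO, 889 and 775 in miR-302 KO, and 4257 and 2472 in double KO iPSC (double KO against WT 2.59 ± 0.25, adjusted p = 3.81e-06, limma). Fn1, the fibronectin gene, had 651, 509.6 and 665 CPM in WT and 1007 and 338 in the double KO colonies, 1 above and 1 below all WT libraries. Its difference of −0.05 ± 0.35 (adjusted p = 0.915, limma) was therefore a mean of 2 opposite colonies: it was 0.74 without colony 2 (adjusted p = 0.0422) and −0.84 without colony 1 (adjusted p = 0.0264), and a replicate block gave 0.02.

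Thrombospondins, secreted glycoproteins that bind matrix and several receptors, gave the largest log2 rise of all 72 genes. Thbs1 had 0, 1.00 and 0.275 CPM in WT, 0.20 and 0.124 in miR-302 KO, 7.41 and 2.18 in miR-290 KO, and 254 and 81.3 in double KO iPSC (8.43 ± 0.92 against WT, adjusted p = 1.24e-05, limma). Thbs3 had 4.36, 5.53 and 3.51 CPM in WT and 60.0 and 23.6 in double KO (3.06 ± 0.49, adjusted p = 0.000258, limma). In both genes colony 1 exceeded colony 2, and both colonies lay above every WT library. The fibrillins Fbn1 and Fbn2, which form microfibrils, were not called; Fbn1 was at 20.4 CPM in colony 1 and 1.63 in colony 2.

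**Figure D3:**
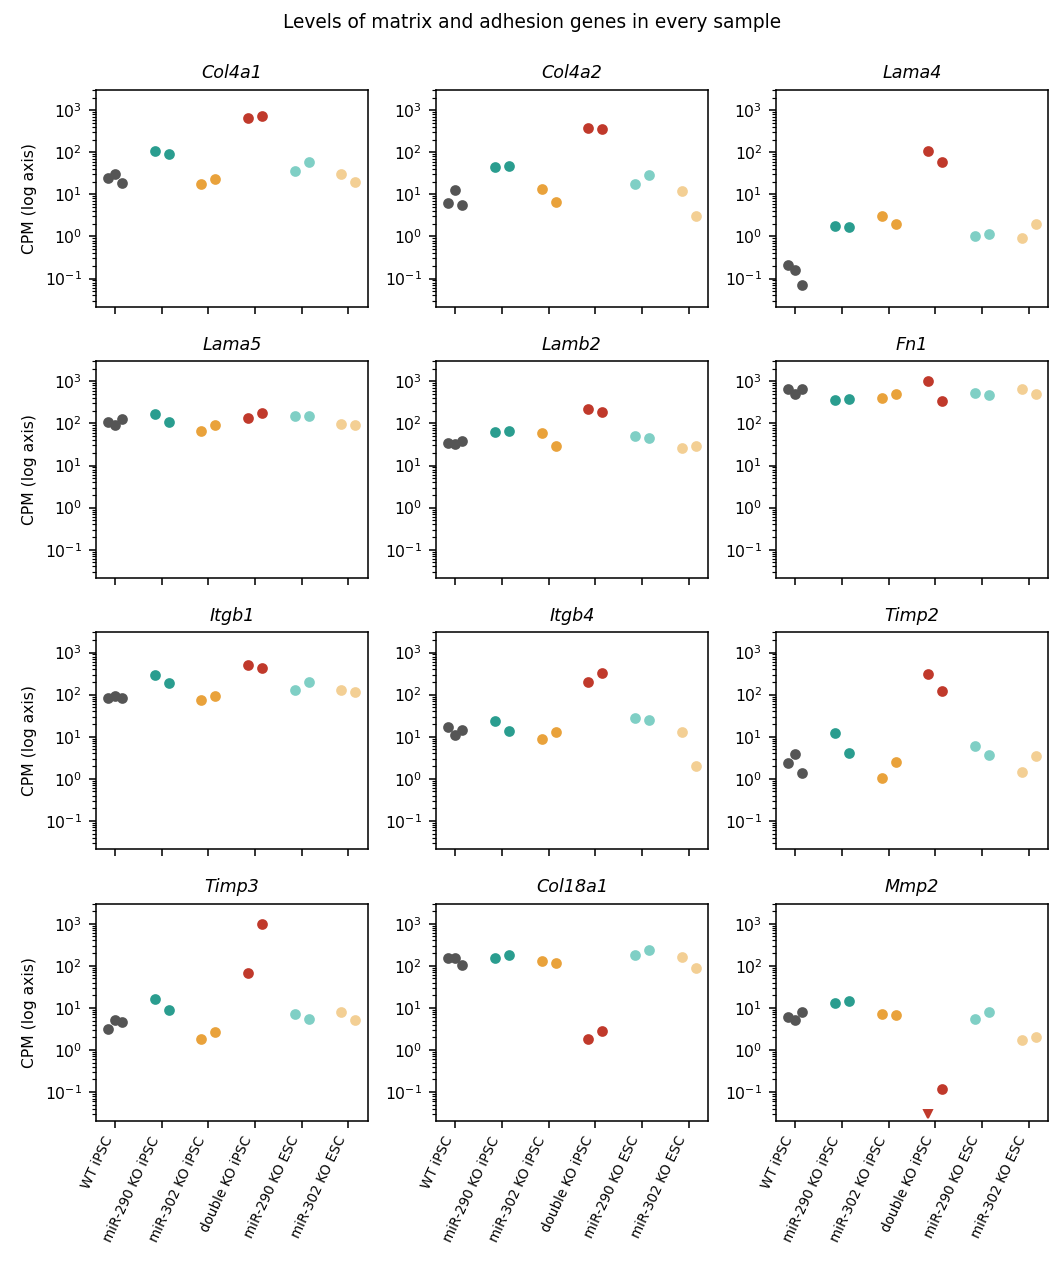
CPM on a log axis of 12 genes in each sample (1 point per sample; colours and columns mark the 6 groups; a triangle at the foot marks a sample with 0 reads). For Col4a1, Col4a2, Lama4, Lamb2, Itgb1, Itgb4, Timp2 and Timp3 both double KO points lie above all others, and for Col18a1 and Mmp2 both lie below.

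The 6 fibril-forming collagens measured at most 22.4 CPM in any sample. Of these, Col11a1 was called higher in double KO (16.7%, against 27.4% of all genes) and Col27a1, Col2a1 and Col5a1 lower (50.0%, against 21.5%). Col1a1 and Col5a3 were not called. Col2a1, the cartilage collagen that pluripotent cells also transcribe weakly, had 5.76, 7.11 and 6.81 CPM in WT and 0.257 and 1.37 in double KO (−3.42 ± 0.54, adjusted p = 0.00023, limma). Col27a1 had 5.44, 3.37 and 5.57 CPM in WT and 0.410 and 0 in double KO (−4.40 ± 0.64, adjusted p = 0.00013, limma). Col1a1, the chain that fibroblasts make in bulk, stayed between 0.162 and 3.37 CPM in WT and at 0.593 and 0.180 in double KO (−1.92 ± 0.98, adjusted p = 0.123, limma; −3.09 and 0.006 without WT library 1). Col11a1 was at 0.862 to 4.11 CPM in WT and at 22.4 and 4.81 in double KO (2.60 ± 0.79, adjusted p = 0.0155, limma); its call was lost without double KO colony 1 (1.51, adjusted p = 0.216), without WT library 1 (2.20, 0.0556) and with a replicate block (2.36, 0.0602). Col5a1, a minor chain of collagen I fibrils, differed by −1.54 ± 0.45 (adjusted p = 0.0128, limma), and by −0.93 without double KO colony 2 (adjusted p = 0.162).

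Of the 9 other collagens, 4 were called lower (44.4%, against 21.5% of all genes) and 2 higher (22.2%, against 27.4%). Col18a1, the basement membrane collagen that carries endostatin at its end, was among the 5 most abundant of the 72 genes in every group except double KO. It measured 156, 154 and 104 CPM in WT, 151 and 182 in miR-290 KO, 127 and 115 in miR-302 KO, and 1.81 and 2.85 in double KO iPSC (−5.85 ± 0.29 against WT, adjusted p = 8.49e-09, limma). Col9a2, a collagen that decorates cartilage fibrils, had 29.7, 25.8 and 33.5 CPM in WT and 0.233 and 0.288 in double KO (−6.33 ± 0.30, adjusted p = 6.31e-09, limma). Neither gene overlapped between double KO and any other group.

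Col13a1, a transmembrane collagen of adhesion sites, had 257 reads in WT and 0 in the 4 double KO libraries, at least 105-fold lower with the floor of 3 reads over the group. Col26a1 had 102 reads in WT and 0 in double KO, at least 41.7-fold lower. Both were called, with adjusted p-values of 4.72e-06 and 0.000294 (limma). Col9a3, whose product pairs with that of Col9a2, was called higher, with 0.431, 0.737 and 1.24 CPM in WT and 2.36 and 5.57 in double KO (2.09 ± 0.71, adjusted p = 0.0268, limma). Without double KO colony 2 it was at 1.49 (adjusted p = 0.227), without WT library 1 at 1.77 (0.0883) and without WT library 2 at 2.08 (0.0564). Col8a1 (3.02 ± 1.15, adjusted p = 0.0448, limma) rested on double KO colony 1, with 12 CPM against 0.589 in colony 2, and stood at 1.02 without it (adjusted p = 0.55). Its call also ended without WT library 1 (2.90, adjusted p = 0.0963) or 3 (2.63, 0.113), any of the 4 single KO iPSC colonies, or 1 of the 2 libraries of miR-290 KO ESC (3.02, 0.0538 to 0.0601), with a replicate block (2.63, 0.141), with median-of-ratios scaling (2.87, 0.0542) and with only the groups compared (0.0745). Col6a5, Col7a1 and Col16a1 were not called.

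**Figure D4:**
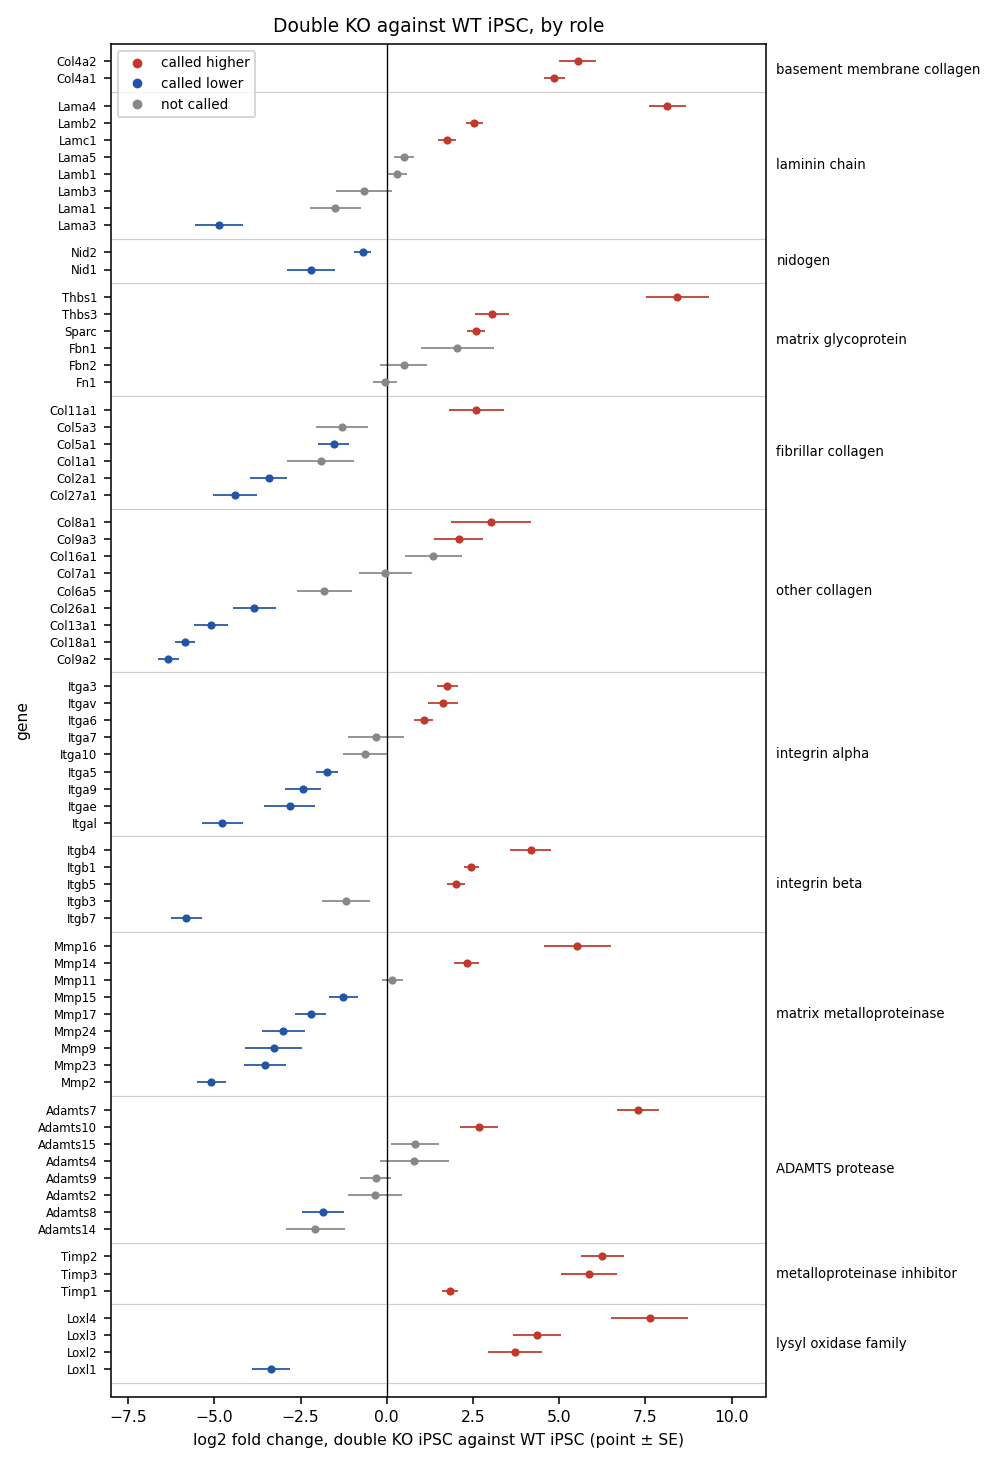
Log2 fold change of 71 of the 72 genes in double KO against WT iPSC (points, with bars for ± 1 SE; n = 2 colonies and 3 libraries), grouped by role, red where called higher, blue where called lower and grey where not called. All 3 Timp genes and both collagen IV genes lie to the right, and 6 of 9 Mmp genes lie to the left in blue.

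Of the 9 integrin alpha chains 3 were called higher in double KO than in WT iPSC (33.3%) and 4 lower (44.4%). Of the 5 beta chains 3 were higher (60.0%) and 1 lower (20.0%). Over all genes these shares were 27.4% and 21.5%. Of the beta chains, Itgb4, Itgb1 and Itgb5 were called higher, Itgb7 lower, and Itgb3 was not called. Itgb1, the beta chain of most matrix receptors, had 82.8, 90.8 and 83.6 CPM in WT, 75.9 and 95.2 in miR-302 KO, 286 and 189 in miR-290 KO, and 505 and 435 in double KO iPSC (2.45 ± 0.22 against WT, adjusted p = 2.6e-06, limma). Itgb4, which pairs with Itga6 and anchors epithelia to laminin, had 17.0, 11.1 and 14.6 CPM in WT and 199 and 334 in double KO (4.17 ± 0.59, adjusted p = 0.000103, limma). Itgb5, which pairs with Itgav, had 40.3, 25.6 and 41.0 CPM in WT and 162 and 122 in double KO (2.01 ± 0.26, adjusted p = 5.75e-05, limma). For these 3 genes both double KO colonies lay above every WT library.

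Itgb7 and Itgal encode chains of leukocyte integrins. Itgb7 had 417 reads in WT and 0 in the 4 double KO libraries (at least 171-fold lower, adjusted p = 6.89e-07, limma), and Itgal 220 and 0 (at least 90.0-fold lower, adjusted p = 3.5e-05, limma). In the single KO iPSC colonies Itgb7 was between 3.73 and 7.53 CPM and Itgal between 1.51 and 4.87, and in the single KO ESC libraries Itgb7 was between 1.82 and 6.04 and Itgal between 1.57 and 4.55.

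Of 9 alpha chains, Itga3, Itgav and Itga6 were called higher, Itgal, Itgae, Itga9 and Itga5 lower, and Itga7 and Itga10 were not called. Itga6, the most abundant alpha chain and a laminin receptor, had 69.2, 73.7 and 109.6 CPM in WT and 235 and 128 in double KO (1.07 ± 0.27, adjusted p = 0.00557, limma). Itgav, which binds fibronectin and vitronectin, had 12.3, 15.1 and 26.5 CPM in WT and 71.0 and 39.7 in double KO (1.63 ± 0.43, adjusted p = 0.00782, limma). Without double KO colony 1 neither passed: Itga6 was at 0.63 (adjusted p = 0.106) and Itgav at 1.21 (adjusted p = 0.0954). Itga3, another laminin receptor chain, had 15, 13.4 and 12.9 CPM in WT and 39.5 and 56.9 in double KO (1.76 ± 0.30, adjusted p = 0.000442, limma).

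Itga5, the alpha chain of the main fibronectin receptor, was called lower in double KO only, though it also measured lower in each single KO. Lack of overlap is frequent with 3 and 2 samples. Against WT it held for 39 of the 72 genes in miR-290 KO and 20 in miR-302 KO, and the share over all genes was not counted. It had 10.8, 11.1 and 9.28 CPM in WT, 5.06 and 5.61 in miR-290 KO, 5.55 and 6.09 in miR-302 KO, and 2.70 and 3.71 in double KO iPSC. No WT value overlapped any KO value, but only the double KO difference passed the test (−1.72 ± 0.32, adjusted p = 0.000767, limma), against −0.95 ± 0.32 in miR-290 KO (adjusted p = 0.157) and −0.97 ± 0.32 in miR-302 KO (adjusted p = 0.264). Itga9 fell by 2.44, from 5.53 to 6.53 CPM in WT to 1.73 and 0.647. Itgae (−2.81) had 0 and 0.331 CPM in double KO, and its call was lost without double KO colony 1 (−2.18, adjusted p = 0.0818).

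Among the proteases and their inhibitors, the inhibitors rose and most metalloproteinase genes fell, while the summed Mmp transcripts rose. The Mmp sum was 81.1 to 91.0 CPM in the WT libraries and 176 and 233 CPM in the double KO colonies. All 3 Timp genes were called higher. Timp1 had 61.3, 53.2 and 44.0 CPM in WT and 160.3 and 220.1 in double KO (1.84 ± 0.23, adjusted p = 3.68e-05, limma). Timp2 had 2.37, 3.90 and 1.37 CPM in WT, 1.07 and 2.49 in miR-302 KO, 12.4 and 4.05 in miR-290 KO, and 304 and 125 in double KO iPSC (6.25 ± 0.63, adjusted p = 6.08e-06, limma). Timp3, which unlike the others stays bound to the matrix, had 3.23, 5.11 and 4.61 CPM in WT and 67.3 and 968 in double KO (5.86 ± 0.82, adjusted p = 9.53e-05, limma). The 2 colonies thus differed 14.4-fold in Timp3, and the difference from WT was 3.93 without colony 2 and 7.79 without colony 1. Timp1 held 88.4% ± 3.07 (SD, n = 3) of Timp reads in WT and 23.5% ± 9.47 (n = 2) in double KO.

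Of 9 Mmp genes, Mmp16 and Mmp14 were called higher (22.2%, against 27.4% of all genes). Mmp2, Mmp23, Mmp9, Mmp24, Mmp17 and Mmp15 were called lower (66.7%, against 21.5%), and Mmp11 was not called. Mmp14, the membrane protease that activates Mmp2, had 35.9, 32.8 and 25 CPM in WT and 132 and 181 in double KO (2.32 ± 0.36, adjusted p = 0.000227, limma). Mmp2, the gelatinase that cuts collagen IV, had 5.92, 5.27 and 7.84 CPM in WT, 13.2 and 14.3 in miR-290 KO, 7.19 and 6.90 in miR-302 KO, and 0 and 0.116 in double KO iPSC (−5.09 ± 0.42, adjusted p = 1.04e-06, limma). The protease and its activator thus moved in opposite directions. Mmp9, the other gelatinase, had 71 reads in WT and 0 in double KO (at least 29.0-fold lower, adjusted p = 0.00571, limma).

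Mmp23 rose in 1 single KO and was nearly lost in double KO. It had 0.808, 2.90 and 2.41 CPM in WT, 15.7 and 21.4 in miR-290 KO, 4.85 and 1.95 in miR-302 KO, and 0 and 0.0587 in double KO iPSC. The 4 double KO libraries held 2 reads against 105 in WT, which makes it 64.4-fold lower (exact 95% interval 17.4 to 539), and 1246 in miR-290 KO, 573-fold (158 to 4737). Mmp24 had 3 reads against 67 in WT and was 27.4-fold lower (8.98 to 136). These intervals, and that of Loxl1 below, use reads summed over a group and cover counting error only. They leave out the spread between colonies and between libraries. PCR copies of a read are not independent molecules, so even the counting error may be understated. The call of Mmp15 (−1.26 ± 0.42, adjusted p = 0.0257, limma) was lost without double KO colony 2 (−0.79, adjusted p = 0.23), without WT library 3 (−1.0, 0.0888), with a replicate block (−1.0, 0.107) and with only the groups compared (0.0538). Mmp16 was at 8.51 and 16.6 CPM in double KO and at 0.269 or less in WT (5.53 ± 0.98, adjusted p = 0.000566, limma).

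Adamts proteases gave 2 higher calls (25.0%), 1 lower (12.5%) and 5 that did not pass, with 27.4% of all genes higher and 21.5% lower. Adamts7, known to cut the cartilage matrix protein COMP, had 1.35, 1.42 and 0.825 CPM in WT, 1.45 and 1.75 in miR-290 KO, 0.147 and 1.56 in miR-302 KO, and 197 and 215 in double KO iPSC (7.29 ± 0.61, adjusted p = 1.23e-06, limma). Neither single KO differed from WT in the test, though miR-302 KO colony 1 lay below every WT library and 10.6-fold below colony 2; the 2 double KO colonies lay above all other samples. Adamts10, a protease of microfibrils, had 2.80, 4.0 and 2.34 CPM in WT and 24.8 and 16.2 in double KO (2.68 ± 0.56, adjusted p = 0.00184, limma). Adamts8 (−1.85 ± 0.60, adjusted p = 0.0221, limma) lost its call without double KO colony 2 (−0.86, adjusted p = 0.288), without WT library 1 (−1.78, 0.0563) and with a replicate block (−1.87, 0.0509), and with log2(CPM + 1) (−0.72, 0.09), each library as a sample (0.0706) or only the groups compared (0.052). Adamts2, Adamts4, Adamts9, Adamts14 and Adamts15 were not called.

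The lysyl oxidase family exchanged members. Loxl2, Loxl3 and Loxl4 were called higher and Loxl1, which is needed for elastic fibres, lower. Loxl4 had 0, 1.21 and 0 CPM in WT and 40.7 and 88.5 in double KO (7.63 ± 1.12, adjusted p = 0.000136, limma). Loxl2, which cross-links collagen IV, had 0.862, 2.26 and 4.88 CPM in WT, 13.3 and 12.1 in miR-290 KO, 1.03 and 1.55 in miR-302 KO, and 17.4 and 51.8 in double KO iPSC (3.72 ± 0.79, adjusted p = 0.00194, limma). Loxl3 had 0.969, 0.316 and 0.481 CPM in WT and 13.6 and 14.2 in double KO (4.36 ± 0.70, adjusted p = 0.000284, limma). Loxl1, with 1 read in double KO and 74 in WT, was 90.8-fold lower (exact 95% interval 15.8 to 3635; limma adjusted p = 0.000313).

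The 2 double KO colonies were derived independently, and 8 of the 54 genes with at least 1 CPM in a colony stood apart between them, by 4-fold or more with no overlap of their libraries (14.8%, against 4.33% of all genes at that level). Col11a1, Col8a1, Fbn1 and Nid1 were higher in colony 1, and Timp3, Lama3, Itgb3 and Adamts4 in colony 2. By the same measure 1 of 69 genes stood apart between the miR-290 KO colonies (Mmp16; 1.45%, against 1.83% of all genes) and 5 of 60 between the miR-302 KO colonies (8.33%, against 2.69%). Nid1 gave 37.4 and 43.8 CPM in the 2 colony 1 libraries, and 3.84 and 3.43 in the 2 colony 2 libraries. Fn1 gave 1006 and 1008.5 CPM for colony 1, and 314 and 363 for colony 2, a gap larger than that between libraries of a colony.

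Genes of 3 other lists of the pathway were counted against the shares over all genes, 27.4% higher and 21.5% lower. Of 19 collagen-modifying enzymes and chaperones in the matrix (20 listed), 8 were called higher (42.1%), 0 lower and 11 not called in double KO against WT. An unadjusted p under 0.05 (limma) was found for 10 of the 19 and for 7088 of all 12778 genes. Serpinh1, the collagen chaperone, had 379.9 CPM in double KO and 78.8 in WT. Of 23 proteoglycans and other matrix proteins (37 listed), 14 were called higher (60.9%) and 4 lower (17.4%); Hspg2, the perlecan of basement membranes, had 378 and 66.3 CPM. Of 26 adhesion partners and co-receptors (27 listed), 16 were called higher (61.5%) and 3 lower (11.5%); the hyaluronan receptor Cd44 had 499 CPM in double KO against 0.115 in WT.

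The miR-290 KO alone shifted a few of these genes upward. Against WT iPSC, 6 of the 72 were called higher (8.33%) and 0 lower, with 22 at an unadjusted p under 0.05 (limma). Over all genes 1.21% were called higher and 0.36% lower, and 2136 of the 12778 had an unadjusted p under 0.05. The 6 were Mmp23 (3.24 ± 0.60, adjusted p = 0.0229), Lama4 (2.68 ± 0.54, 0.0304), Col4a2 (2.48 ± 0.54, 0.0417), Col4a1 (1.99 ± 0.31, 0.0103), Itgb1 (1.44 ± 0.22, 0.0103) and Sparc (1.35 ± 0.25, 0.0219), from the values given above. In these 6 genes both miR-290 KO colonies lay above every WT library. Of the 6 calls, 0 were left without colony 2 and 1, that of Sparc, without colony 1, with log2 differences of 1.12 to 3.02 and 1.14 to 3.47 for the genes that missed the threshold. Without WT library 1 there were 2 calls and without WT library 2 there were 3, and a replicate block left 1. The Col4a2 call also ended without WT library 3, without a double KO colony (1 or 2), and without a library of miR-290 KO ESC (1 or 2), with adjusted p-values of 0.0514 to 0.109, and with median-of-ratios scaling (0.0539). For Lama4 the adjusted p was 0.0815 without WT library 3, and 0.0594 and 0.0589 without library 1 and 2 of miR-290 KO ESC, 0.0737 with log2(CPM + 1) and 0.0966 with only the groups compared.

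The miR-302 KO alone gave no call among the 72 against WT iPSC. In limma 0 were called, and over all genes 0.0235% were called higher and 0.00783% lower. An unadjusted p under 0.05 (limma) was found for 12 of the 72 and for 1928 of all 12778 genes. Lama4, at 3.04 and 2.02 CPM against 0.0687 to 0.215 in WT, came nearest, with 3.10 ± 0.54 (adjusted p = 0.09, limma). The count of 0 did not hold without miR-302 KO colony 2. That fit leaves colony 1 as the only miR-302 KO sample, and colony 1 includes the library that correlated least with its group. Set side by side, miR-290 KO iPSC exceeded miR-302 KO iPSC in 4 genes, with 0 lower; over all genes the shares were 1.85% and 0.391%. They were Mmp23 (3.27 ± 0.65, adjusted p = 0.028, limma), Col4a1 (2.26 ± 0.34, 0.00919), Mmp14 (1.79 ± 0.40, 0.0391) and Itgb1 (1.47 ± 0.24, 0.0163). The Mmp14 call also ended without WT library 1 (adjusted p = 0.0506) or 2 (0.0583), either miR-290 KO ESC library (0.0656 and 0.0657), with a replicate block (0.0552), with median-of-ratios scaling (0.068), or with miR-302 KO colony 1 from library 1 alone (0.0508). The count of 4 fell without miR-302 KO colony 1 or either miR-290 KO colony, and rose without miR-302 KO colony 2. Each of these fits leaves 1 sample in a group.

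The double KO also stood apart from each single KO. These comparisons share the double KO samples with each other and with the comparison to WT, so they are not independent. Against miR-290 KO iPSC, 22 genes were called higher and 21 lower, with 15.6% and 16.8% of all genes; the median of the 72 was −0.21 and that of all genes 0.03. Against miR-302 KO iPSC, 29 were higher and 19 lower, with 28.5% and 18.4% of all genes, and medians of 0.73 and 0.24. Col4a1 was 2.87 ± 0.34 higher in double KO than in miR-290 KO (adjusted p = 4.28e-05, limma) and 5.13 ± 0.34 higher than in miR-302 KO (1.97e-07). For Adamts7 these differences were 7.01 ± 0.67 (6.28e-06) and 8.32 ± 0.67 (1.11e-06), and for Thbs1 5.11 ± 1.01 (0.00207) and 9.02 ± 1.01 (1.89e-05). Among the falls, Mmp23 was 6.77 lower than in miR-290 KO (−6.77 ± 0.65, adjusted p = 7.15e-06, limma) and Col18a1 differed from the 2 single KO groups by −6.13 ± 0.31 (1.94e-08) and −5.60 ± 0.31 (3.89e-08).

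The effect of losing both clusters was set against the sum of the single losses by adding the log2 differences of the single KO groups and subtracting them from that of the double KO. Of the 72 genes, 18 lay above the sum and 16 below, with 12.0% and 11.7% of all genes. Adamts7 lay 8.04 ± 0.90 above it (adjusted p = 5.35e-05, limma), Timp2 5.68 ± 0.93 (0.00102), Timp3 5.39 ± 1.22 (0.00769), Thbs1 5.70 ± 1.36 (0.0106) and Loxl4 6.01 ± 1.66 (0.0214). The Thbs1 term missed the threshold without miR-290 KO colony 2 (4.84, adjusted p = 0.0547) or double KO colony 1 (4.87, 0.0657). The Loxl4 term missed it without miR-290 KO colony 2 (5.25, 0.0906), miR-302 KO colony 1 (5.39, 0.0824) or double KO colony 2 (5.46, 0.0714). Collagen IV rose in miR-290 KO and still exceeded the sum, by 3.14 ± 0.46 for Col4a1 (0.000467) and 2.90 ± 0.80 for Col4a2 (0.0209). Below the sum lay Mmp23 (−6.75 ± 0.88, adjusted p = 0.000204, limma), Mmp2 (−6.00 ± 0.62, 2.65e-05), Col18a1 (−5.89 ± 0.42, 1.08e-06), Col9a2 (−5.76 ± 0.44, 2.07e-06) and Loxl1 (−5.44 ± 0.81, 0.000531). Mmp23, Mmp2 and Loxl1 were above every WT library in both miR-290 KO colonies and had 2, 4 and 1 reads in double KO.

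**Figure D5:**
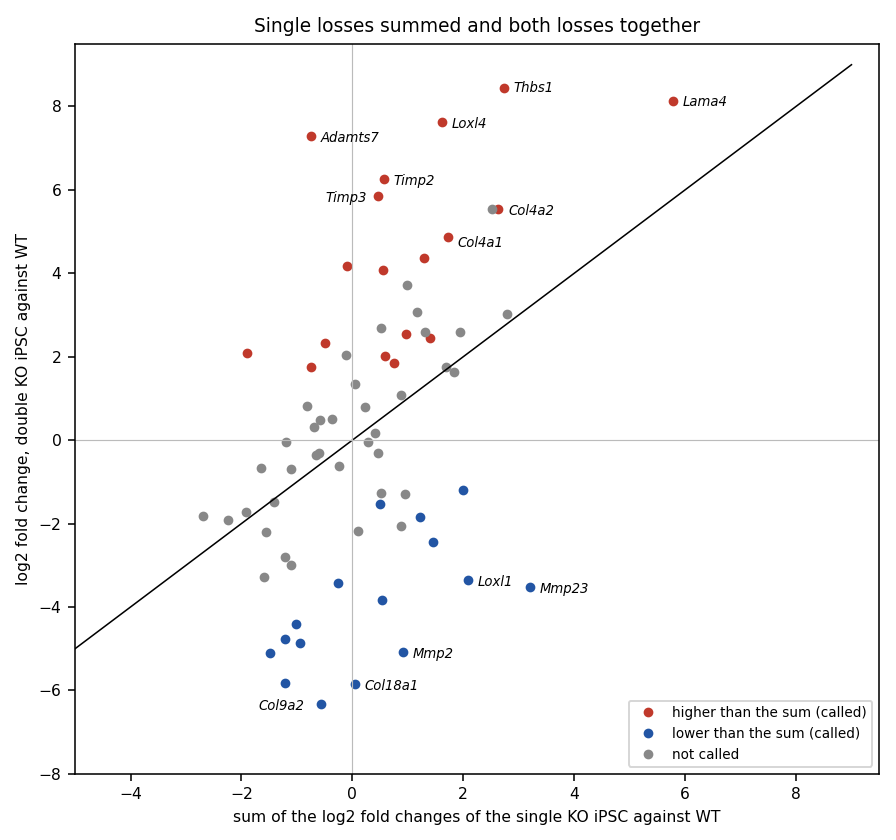
Each point is 1 of the 72 genes: the summed log2 fold changes of the 2 single KO iPSC groups against WT (horizontal) and the log2 fold change of double KO against WT (vertical); the line marks equality, and colours mark genes called above (18) or below (16) the sum. Adamts7, Timp2 and Timp3 lie near 0 on the horizontal axis and high on the vertical one.

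In ESC the same single losses could be compared without reprogramming. Between ESC and iPSC lacking miR-290, limma called 0 of the 72 genes, and 0.0% of all genes were called higher and 0.0% lower. An unadjusted p under 0.05 (limma) was found for 5 of the 72 and for 492 of all 12778 genes. Between ESC and iPSC lacking miR-302, 7 of the 72 and 1343 of all 12778 genes had an unadjusted p under 0.05 (limma). After adjustment limma also called 0 of the 72 here, and 0.0% and 0.0% of all genes. This 0 did not hold without miR-302 KO iPSC colony 2, which leaves 1 sample in that group. Col4a1 had 36.4 and 57.9 CPM in miR-290 KO ESC, 30.6 and 19.2 in miR-302 KO ESC, and 109.5 and 90.1 in miR-290 KO iPSC; the ESC to iPSC difference of −1.05 ± 0.34 did not pass (adjusted p = 0.999, limma). Itgb1 had 130.1 and 197 CPM in miR-290 KO ESC and 131 and 117 in miR-302 KO ESC, which overlap.

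Between the 2 ESC groups 1 gene was called higher in miR-290 KO, Col6a5, a chain of beaded collagen VI filaments, and 0 lower; over all genes 0.376% were called higher and 0.211% lower. Col6a5 had 1.91 and 5.96 CPM in miR-290 KO ESC and 0 reads in both miR-302 KO ESC libraries, at least 46.8-fold higher (4.65 ± 0.88, adjusted p = 0.0397, limma). In iPSC it was at 2.20 and 2.47 CPM in miR-290 KO, 0 and 0.178 in miR-302 KO and 0.862 to 2.16 in WT. The call was lost without any 1 of the 3 WT libraries, either miR-290 KO iPSC colony, either miR-290 KO ESC library or library 2 of miR-302 KO ESC, with adjusted p-values of 0.0519 to 0.426, and with a replicate block (0.0917). Without library 1 of miR-302 KO ESC, which leaves 1 sample in that group, more genes were called, all higher in miR-290 KO ESC.

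Across the 6 groups the most abundant genes were largely shared. Sparc, Fn1 and Lamc1 were among the 5 highest in each group, and Col18a1 in each except double KO, where Col4a1 and Timp3 were. In miR-290 KO ESC, Fn1 had 516 and 469 CPM, Sparc 972 and 846, and Lamc1 204 and 170.1; in miR-302 KO ESC these were 663 and 499, 744 and 569.9, and 230.0 and 207. Timp3, at 7.30 and 5.39 CPM in miR-290 KO ESC and 7.93 and 5.12 in miR-302 KO ESC, stood far below both double KO colonies.

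The authors' deposited table for double KO against WT holds 52 of the 72 genes, 29 higher and 23 lower. Of them 49 were also called here, all in the same direction. The authors' tables rest on the same libraries as the fit here, so the shared direction is not independent support. The authors' deposited table for miR-290 KO lists 20, 16 higher and 4 lower, of which 6 were called here. The authors' deposited table for miR-302 KO lists 1, Lama4, with a log2 fold change of 4.15 ± 0.92 (SE). Lama4 was not called here in that comparison.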

How the data were processed

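The authors deposited a matrix of log2 values for 12778 genes in 19 libraries. From the values, these are log2 CPM with a small prior plus a constant for each gene; 1 constant returned whole reads in 12239 genes (95.8%), 99.7% of values lying within 0.02 of a read, and all 72 genes were among them. CPM is recovered reads per 1000000 of the library size that the prior implies. The authors' deposited tables hold, per the file headers, a mean signal per gene, log2 fold changes with errors, a test score and p-values. The submitters' processing notes name Trim Galore 0.66, FastQC 0.11.9, MultiQC, STAR, Salmon 1.4.0, DESeq2 1.34.0, limma and mm10, with no role given; how rows were selected, and the use of strand, are not given in the sources used here. The matrix has 6 further columns, which were left unused.

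Each colony entered as the mean of its 2 libraries, which left 13 samples in 6 groups and 7 residual degrees of freedom in 1 fit with limma 3.58.1 (R 4.3.3, eBayes with a trend), over 10 comparisons, each Benjamini-Hochberg adjusted over all genes. Recovery and limma were tested on simulated data, with 200 of 12778 genes changed in double KO against WT. Of changes of 1 on the log2 scale 16.8% were recovered, and of changes of 2, 60%. The data had 6255 genes called in that comparison, so these shares do not carry over to it. The fold change includes the prior, which shrinks changes of weakly expressed genes. A group with 0 reads was set to a floor of 3 reads over the group; ratios with 1 to 3 reads have exact (Clopper-Pearson) 95% intervals.

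The genes and lists were chosen with earlier results of these data known. Named were a core list (25 genes, 22 in the matrix), the called genes with the 10 largest rises and falls (5 in other comparisons) and the 5 most abundant genes per group; other called genes were named after their values were seen. The values of 1 gene are counted but not reported here. Alternatives were median-of-ratios scaling, a filter of 10 reads in 2 libraries (all 72 genes passed), log2(CPM + 1), each library as a sample, only the groups compared, sample weights, a replicate block, each sample left out and, chosen after seeing the data, miR-302 KO colony 1 from library 1 alone. Sequences come from RefSeq tables (GRCm38.p6) and GENCODE M21 transcripts.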

Additional observations from a re-analysis of the deposited data

Results flagged for a closer look

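In 34 of the 72 genes the double KO effect differed from the sum of the single KO effects by a test of that difference. These were 18 above the sum (25.0%) and 16 below (22.2%), against 12.0% and 11.7% of all genes. The 5 largest called terms in each direction, on the log2 scale, were 8.04 for Adamts7, 6.01 for Loxl4, 5.70 for Thbs1, 5.68 for Timp2 and 5.39 for Timp3 above the sum, and −6.75 for Mmp23, −6.00 for Mmp2, −5.89 for Col18a1, −5.76 for Col9a2 and −5.44 for Loxl1 below it. Mmp23, Mmp2 and Loxl1 had levels above every WT library in both miR-290 KO colonies, and 2, 4 and 1 reads in double KO. No group had the 4 samples needed to look for a single outlying sample.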

How the results depend on the processing

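The counts of called genes in double KO against WT (46 to 52), against each single KO and for the departure from the sum stayed within 1.5 times their values in each alternative. Of 1176 values of named genes in double KO against WT, 1128 kept their direction and side of the threshold, 42 lost the call, 2 gained it and 4 changed sign, all 4 for Fn1: 0.02 with a replicate block and −0.84 to 0.74 when a sample was left out (0.0, 0.02 and 0.74 where the sign changed). Of 126 values in miR-290 KO against WT, 34 lost the call, and so did 26 of 84 between the single KO groups, 5 of 210 for the departure from the sum, 12 of 21 for Col6a5 in ESC, and 0 of 210 in each comparison of double KO with a single KO.

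The comparisons with 6 or fewer calls had the counts that moved by over 1.5 times; the cause was not tested. Colony numbers do not pair samples: deviations of same-numbered colonies correlated at −0.27, −0.03 and −0.01 between the KO groups. With a replicate block, miR-290 KO against WT gave 1 call in place of 6 and the ESC groups 0 in place of 1; the block changed no other count by over 1.5 times, and of the calls named for double KO against WT it ended those of Nid2, Adamts8, Col11a1, Col8a1 and Mmp15. With each library as a sample, miR-302 KO against WT gave 1, miR-290 KO against miR-302 KO 12 in place of 4, and the ESC groups 0. Fitting only the groups compared gave 0 for the single KO groups and 0 for the ESC groups, and sample weights gave 0 and 0; log2(CPM + 1) gave 7 for the single KO groups. With a sample left out, the counts ran from 0 to 6 for miR-290 KO against WT, 0 to 5 for miR-302 KO against WT, 0 to 11 between the single KO groups, 0 to 2 for miR-302 KO ESC against iPSC and 0 to 4 between the ESC groups.

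In the simulation of double KO against WT, 16.8% of changes of 1 on the log2 scale were recovered, so changes of that size can be missed.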
